A study of Mus musculus with 10 samples.

Results

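The genes described here are 39 lysosomal genes, taken from a list of names, out of 47632 gene rows in the table of RNA levels. They encode 25 soluble hydrolases, the activator precursor prosaposin, progranulin, 6 lysosomal membrane proteins and 6 subunits of the proton pump that acidifies the lysosome. RNA came from the striatum, a deep forebrain region, of mice harvested at 11 weeks of age. The first group holds 5 libraries from hemizygous R6/2 mice, whose transgene expresses the start of human huntingtin, with a lengthened CAG repeat, from the human gene's own promoter, and which are used as a model of Huntington's disease. The second group holds 5 libraries from isogenic wild-type mice. No other allele or agent is named for either group, and the labels leave unsaid whether every library is a separate mouse. P-values therefore reflect library-to-library spread, part of which may be technical. The comparison asks which transcripts differ between R6/2 and isogenic control striatum.

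Lysosomes are the acidic organelles in which cells break down proteins, lipids, glycans and glycogen delivered by endocytosis and autophagy. The vacuolar ATPase (V-ATPase) pumps protons across their membrane with a cytosolic ATP-splitting sector, V1, and a membrane sector, V0, and the same pump acidifies synaptic vesicles in neurons. The hydrolases work at acid pH, and inherited loss of most of them causes lysosomal storage diseases, many of which damage the brain. Many lysosomal genes carry in their promoters the CLEAR element, an E-box palindrome bound by the transcription factor TFEB and its relatives.

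Values are FPKM as deposited, that is, fragments scaled by transcript length and by library size, so that levels can be compared between genes. Per-library depth is unknown. FPKM summed to 1545169 to 1791769 in R6/2 and 1638364 to 2309123 in control libraries, Control 5 being highest. Genes of the mitochondrial genome took 22.1% to 29.9% of it in R6/2 and 28.1% to 33.8% in controls, and the part of these shares in the results was not tested. The spiny projection neuron markers, the defining genes of this tissue, summed to 388 to 586 FPKM in R6/2 and 2447 to 3045 FPKM in control libraries, none was listed at 0 in a library, and all 15 fell in R6/2. In a bulk sample, fewer cells of a type and less RNA per cell cannot be told apart. Markers of cortical neurons, 4 genes, were also present. Their mean log2 level, centred over the 10 libraries, was 0.14, 0.60, 0.84, 0.0921 and 0.17 in R6/2 libraries 1 to 5, against -0.74, -0.0512, -0.94, -0.0205 and -0.10 in control libraries 1 to 5. Controls 1 and 3 stood lowest and R6/2 libraries 2 and 3 highest, and calls are also given below without these 4 libraries, a choice made after seeing the data.

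Among the 39 genes, every change that passed the test was a rise in R6/2. Of 38 members tested, 9 rose and 0 fell at a limma adjusted p under 0.05, and 29 did not pass. At an unadjusted limma p under 0.05, 16 of 38 members were higher and 0 lower, where 1909 of all 15905 genes tested were higher and 2458 lower at that level. Those that rose were the V-ATPase genes Atp6v1a, Atp6ap1 and Atp6v1b2, the membrane protein genes Lamp1, Lamp2 and Cln3, the sphingomyelin-splitting enzyme gene Smpd1, the prosaposin gene Psap and the iduronate sulfatase gene Ids. The rising members were 23.7% of those tested, where 5.00% of all 15905 genes tested were called higher and 9.11% lower. The median log2 change of the members was 0.15 on the log2(FPKM + 1) scale, and 0.00103 over all genes tested. The 5 R6/2 values lay above all 5 control values in 9 members, of which 8 passed the test, the exception being Lipa. Complete separation of the groups occurred with R6/2 higher in 4.50% of all genes tested, and with R6/2 lower in 8.58%. Rises were found in 6 of 12 membrane protein and V-ATPase genes (median log2 change 0.23) and in 3 of 26 tested genes for enzymes, prosaposin and progranulin (median 0.0575), a difference that was not tested. Among the 29 members that did not pass, 16 had a positive and 13 a negative change. The N-acetylglucosaminidase gene Naglu, with 0.143 ± 0.0931 FPKM in R6/2 and 0.364 ± 0.256 FPKM in control libraries (SD, n = 5 each), lay under the minimum mean of 1 FPKM and was not tested.

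**Figure D1:**
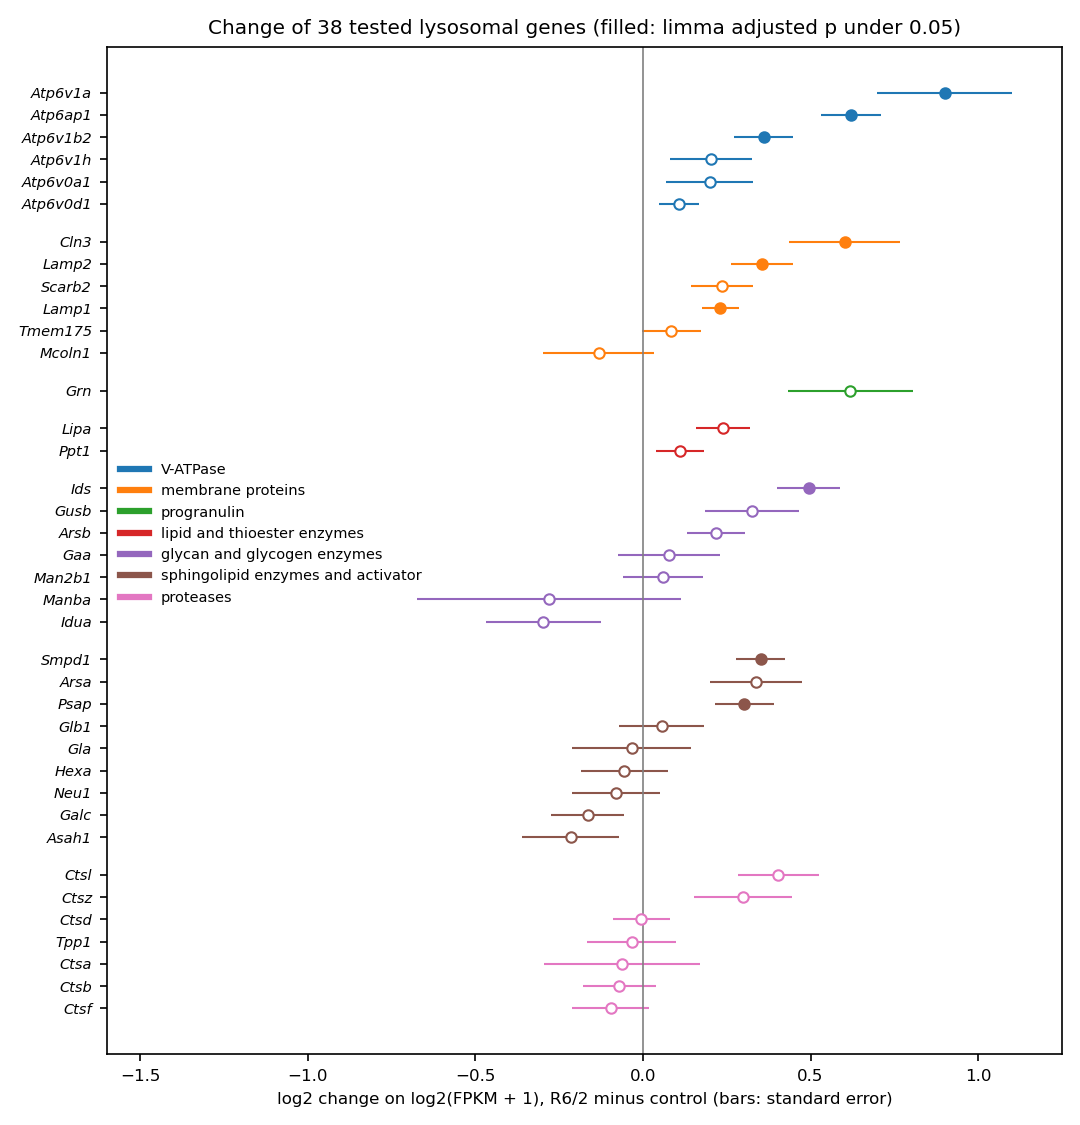
Log2 change on the log2(FPKM + 1) scale, R6/2 minus control, of the 38 tested lysosomal genes, grouped by role; horizontal bars are standard errors and filled points have a limma adjusted p under 0.05. All 6 V-ATPase genes lie right of 0, from 0.11 to 0.90, while the proteases other than Ctsl and Ctsz lie between -0.0967 and -0.00480.

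The V-ATPase genes held the largest change. Atp6v1a (ENSMUSG00000052459.13, GRCm38 chromosome 16, 44085402 to 44139705), which encodes the catalytic A subunit of the V1 sector, was the most abundant member. It was at 648, 790.5, 714, 624 and 557 FPKM in R6/2 libraries 1 to 5, against 426, 364, 208, 403 and 430.3 FPKM in controls 1 to 5. Every R6/2 value was above every control value, and Control 3 was far below the other controls. The means were 667 ± 89.2 FPKM in R6/2 and 366 ± 92.4 FPKM in controls (SD, n = 5 each, log2 change 0.90, SE 0.20, limma adjusted p = 0.0153). Without Control 3 the log2 change was 0.71 (limma adjusted p = 0.00485). Atp6ap1 (ENSMUSG00000019087.13, GRCm38 chromosome X, 74297097 to 74304721), which encodes an accessory subunit needed for pump assembly, was at 158, 186, 193, 159.7 and 170.1 FPKM in R6/2 libraries 1 to 5, against 118, 106, 97.5, 116 and 124 FPKM in controls 1 to 5. The groups did not overlap (log2 change 0.62, SE 0.0899, limma adjusted p = 0.0015), and the call held without each library in turn. Atp6v1b2 (ENSMUSG00000006273.14, GRCm38 chromosome 8, 69088646 to 69113711), which encodes the brain form of the V1 B subunit that forms the catalytic ring with subunit A, was at 76.6, 76.3, 82.0, 64.4 and 74.1 FPKM in R6/2 libraries 1 to 5, against 60.3, 60.6, 57.5, 62.01 and 49.5 FPKM in controls 1 to 5. Its groups did not overlap either (log2 change 0.36, SE 0.0872, limma adjusted p = 0.022), but the call was lost without R6/2 1, 2 or 3 or Control 3, with adjusted p up to 0.0515.

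The other V-ATPase subunits among the members had smaller, positive changes that did not pass. These were the V1 regulatory subunit gene Atp6v1h (log2 change 0.20, limma adjusted p = 0.327), the V0 a1 subunit gene Atp6v0a1, which is the neuronal synaptic form (log2 change 0.20, limma adjusted p = 0.369), and the V0 d1 subunit gene Atp6v0d1 (log2 change 0.11, limma adjusted p = 0.291). Atp6v0d1 was steady between libraries, at 53.9 ± 1.06 FPKM in R6/2 and 50.0 ± 3.02 FPKM in control libraries (SD, n = 5 each). The 6 subunits summed to 980.0 to 1251 FPKM in R6/2 and 556 to 804 FPKM in control libraries. Atp6v1a, at a mean of 667 FPKM in R6/2 and 366 FPKM in controls, was the largest part of these sums, which therefore do not describe every subunit.

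**Figure D2:**
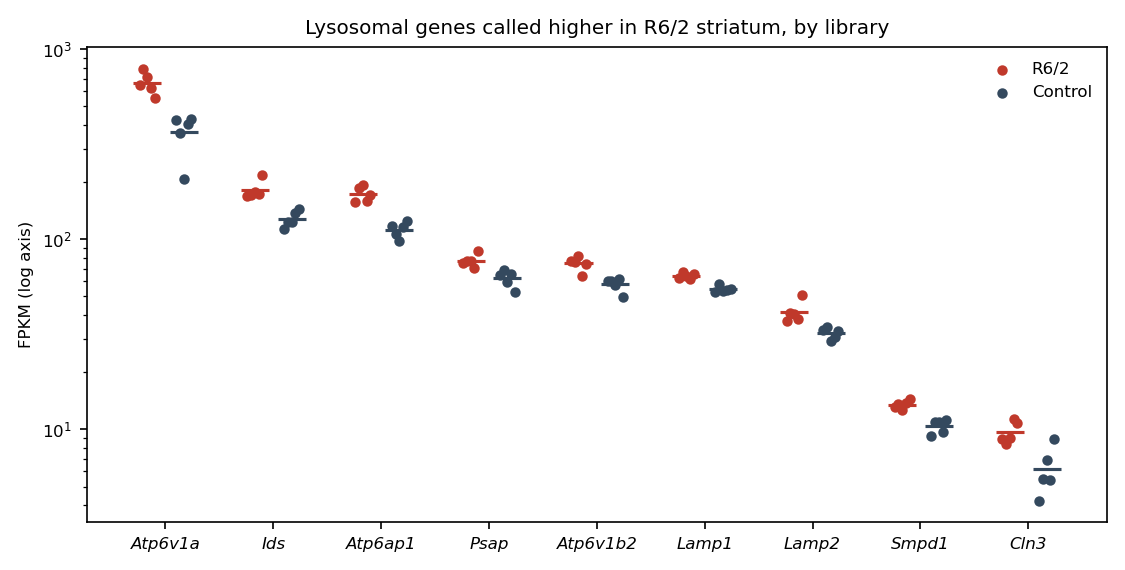
FPKM on a log axis of the 9 lysosomal genes called higher in R6/2, with 1 point per library, R6/2 left of control, and a line at each group's mean. The groups do not overlap in 8 of the 9 genes; in Cln3 the highest control, 8.85 FPKM, lies above the lowest R6/2 library, 8.35 FPKM.

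Among lysosomal membrane proteins, 3 of 6 rose. Lamp1 (ENSMUSG00000031447.6, GRCm38 chromosome 8, 13159161 to 13175338) and Lamp2 encode the heavily glycosylated proteins that make up most of the lysosomal membrane's protein coat. Lamp1 was at 62.7, 67.1, 64.5, 61.7 and 65.3 FPKM in R6/2 libraries 1 to 5, against 53.0, 58.2, 53.5, 53.8 and 54.7 FPKM in controls 1 to 5. Its change was small and its replicates close together, with no overlap (log2 change 0.23, SE 0.0553, limma adjusted p = 0.0213). Lamp2 (ENSMUSG00000016534.15, GRCm38 chromosome X, 38401357 to 38456454) was at 37.3, 40.8, 40.6, 38.1 and 50.6 FPKM in R6/2 libraries 1 to 5, against 33.3, 34.6, 29.1, 30.4 and 33.0 FPKM in controls 1 to 5. All R6/2 values were above all controls, R6/2 5 the highest (log2 change 0.35, SE 0.0932, limma adjusted p = 0.0314). The call of Lamp1 was lost without R6/2 2, Control 1 or Control 3 (adjusted p up to 0.054), and that of Lamp2 without R6/2 2, R6/2 3 or Controls 1, 3 or 4 (up to 0.0766).

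Cln3 (ENSMUSG00000030720.16, GRCm38 chromosome 7, 126571207 to 126585817), whose loss causes the juvenile form of neuronal ceroid lipofuscinosis, was at 8.94, 8.35, 8.98, 11.3 and 10.8 FPKM in R6/2 libraries 1 to 5, against 4.21, 5.45, 6.92, 5.43 and 8.85 FPKM in controls 1 to 5. Control 5 reached the R6/2 range (log2 change 0.60, SE 0.17, limma adjusted p = 0.0388). The call held only without Control 5 among the settings that left out a library, where the log2 change was 0.72 (limma adjusted p = 0.00915), with adjusted p up to 0.0856 in the others. The exons of Cln3 and of Lamp1 overlap a gene on the opposite strand, Apobr for Cln3 and Grtp1 for Lamp1. In all, 17 of the 39 members share exon positions with another gene. No source used here gives the strand setting of the counting. Changes did not pass for Scarb2, the receptor that carries beta-glucocerebrosidase to lysosomes (log2 change 0.24, limma adjusted p = 0.131), for the potassium and proton channel gene Tmem175 (log2 change 0.0843, limma adjusted p = 0.581) or for the calcium channel gene Mcoln1 (log2 change -0.13, limma adjusted p = 0.656).

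Of 9 genes of sphingolipid breakdown, 2 rose. Smpd1 (ENSMUSG00000037049.8, GRCm38 chromosome 7, 105554360 to 105558389) encodes acid sphingomyelinase, which splits sphingomyelin into ceramide. It was at 13.2, 13.5, 12.7, 13.7 and 14.4 FPKM in R6/2 libraries 1 to 5, against 9.22, 10.9, 10.9, 9.69 and 11.2 FPKM in controls 1 to 5. The groups did not overlap and no library decided the call (log2 change 0.35, SE 0.0734, limma adjusted p = 0.0114). Psap (ENSMUSG00000004207.14, GRCm38 chromosome 10, 60277627 to 60302597) encodes prosaposin, the precursor of the saposins that present sphingolipids to their hydrolases. It was at 74.9, 76.6, 76.6, 70.2 and 86.2 FPKM in R6/2 libraries 1 to 5, against 64.7, 68.9, 59.4, 65.7 and 52.8 FPKM in controls 1 to 5. The groups did not overlap, and the change was just past the threshold (log2 change 0.30, SE 0.0874, limma adjusted p = 0.0466). Its call held without R6/2 4 or Control 2 and was lost without each of the 8 other libraries (adjusted p up to 0.103).

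The remaining 7 sphingolipid enzymes did not pass. The arylsulfatase A gene Arsa, whose enzyme breaks down the myelin lipid sulfatide, had a positive change (log2 change 0.34, limma adjusted p = 0.14), and the beta-galactosidase gene Glb1 one near 0 (log2 change 0.0559, limma adjusted p = 0.823). Changes were negative for the ceramidase gene Asah1 (-0.22), the myelin lipid hydrolase gene Galc (-0.16), the sialidase gene Neu1 (-0.0806), the hexosaminidase gene Hexa (-0.0554) and the alpha-galactosidase gene Gla (-0.0339), with limma adjusted p from 0.377 to 0.934. Levels in this group ran from 2.02 FPKM for Glb1 to 76.9 FPKM for Psap in R6/2.

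Of 7 tested genes for the breakdown of glycosaminoglycans, glycogen and N-glycans, Ids rose. Ids (ENSMUSG00000035847.15, GRCm38 chromosome X, 70343069 to 70365084) encodes iduronate 2-sulfatase, which removes sulfate from dermatan and heparan sulfate. It was at 169, 171, 176, 172 and 218 FPKM in R6/2 libraries 1 to 5, against 114, 123, 124, 137 and 144 FPKM in controls 1 to 5. R6/2 5 was the highest and the groups did not overlap (log2 change 0.49, SE 0.0946, limma adjusted p = 0.00736). The call held without each library in turn. Ids was far more abundant than the other genes of the group, of which the glycogen-splitting Gaa was next at 33.0 ± 3.88 FPKM in R6/2 and 31.6 ± 6.81 FPKM in control libraries (SD, n = 5 each, log2 change 0.0779, limma adjusted p = 0.79). The changes of the glucuronidase gene Gusb (0.33), the arylsulfatase B gene Arsb (0.22), the alpha-mannosidase gene Man2b1 (0.0591), the beta-mannosidase gene Manba (-0.28) and the iduronidase gene Idua (-0.30) did not pass, with limma adjusted p from 0.132 to 0.798. Idua acts on the same chains as Ids. Manba varied most of the tested members, between 0.824 and 4.03 FPKM in R6/2 and between 1.18 and 5.89 FPKM in control libraries.

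None of the 7 proteases passed. Ctsd, the main aspartic protease of lysosomes, was at 80.3, 79.1, 65.6, 78.9 and 82.0 FPKM in R6/2 libraries 1 to 5, against 69.2, 75.2, 75.1, 82.4 and 85.1 FPKM in controls 1 to 5. The groups covered each other almost wholly (log2 change -0.00480, SE 0.0848, limma adjusted p = 0.984), and its exons overlap those of another gene on the same strand. The changes of the cysteine protease genes Ctsb (-0.0704) and Ctsf (-0.0967), the carboxypeptidase gene Ctsa (-0.0617) and the tripeptidyl peptidase gene Tpp1 (-0.0338) were also small, with limma adjusted p from 0.64 to 0.908, and the sign of Ctsd, Ctsb, Ctsf, Ctsa and Tpp1 turned positive after rescaling. Ctsl, another cysteine protease, stood apart from these, at 29.0, 33.0, 37.1, 26.5 and 27.6 FPKM in R6/2 libraries 1 to 5, against 27.4, 24.6, 19.1, 21.1 and 22.5 FPKM in controls 1 to 5. Ctsl exons overlap a processed pseudogene on the same strand and an antisense gene. One control, Control 1, reached the R6/2 range (log2 change 0.40, SE 0.12, limma adjusted p = 0.0534), and the change passed without it (log2 change 0.47, limma adjusted p = 0.0381). Ctsz, a carboxypeptidase of the same family, did not pass (log2 change 0.30, limma adjusted p = 0.226). The 7 proteases summed to 195 to 227 FPKM in R6/2 and 182 to 210.5 FPKM in control libraries.

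Grn encodes progranulin, a secreted and lysosomal protein whose loss causes frontotemporal dementia or, when complete, a lysosomal storage disease. It was at 27.3, 31.6, 22.2, 25.9 and 19.7 FPKM in R6/2 libraries 1 to 5, against 19.8, 18.9, 16.7, 16.5 and 9.97 FPKM in controls 1 to 5. Only the highest control, 19.8 FPKM, reached the lowest R6/2 library, 19.7 FPKM, and the change, though among the larger ones, did not pass (log2 change 0.62, SE 0.19, limma adjusted p = 0.0554). It passed without R6/2 5 (log2 change 0.70, limma adjusted p = 0.0473). Of the lipid and thioester enzymes, the acid lipase gene Lipa was at 7.09, 6.73, 6.53, 6.67 and 6.41 FPKM in R6/2 libraries 1 to 5, against 5.17, 6.31, 5.76, 5.73 and 4.71 FPKM in controls 1 to 5. The groups did not overlap, by a narrow margin, and the change did not pass (log2 change 0.24, SE 0.0804, limma adjusted p = 0.0811). The palmitoyl-protein thioesterase gene Ppt1 was at 33.6 ± 2.02 FPKM in R6/2 and 31.1 ± 2.21 FPKM in control libraries (SD, n = 5 each, log2 change 0.11, limma adjusted p = 0.364).

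Some of the genes that rose lie on the same chromosome: Atp6ap1, Lamp2 and Ids are 3 of the 4 X-linked members, the other being Gla. Elsewhere in the pathway, the X-linked Rragb rose and the X-linked Ap1s2 fell, with values given below. Of 544 X-linked genes tested, 8.27% were called higher. All 10 libraries held transcripts of 4 Y-linked genes, of which Eif2s3y passed the test (log2 change 0.47, limma adjusted p = 0.0379) and Kdm5d (log2 change 0.17, limma adjusted p = 0.484), Uty (log2 change 0.0862, limma adjusted p = 0.658) and Ddx3y (log2 change 0.35, limma adjusted p = 0.12) did not. Xist, the RNA of the inactive X chromosome, was at 0.0339 to 2.44 FPKM in R6/2, highest in R6/2 4, and at 0.0300 to 1.06 FPKM in controls, highest in Control 1.

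The 250 bases before the RefSeq start of transcription (GRCm38.p6) were read for 35 of the 39 members and searched for the E-box core CACGTG and for TCACGTGA, which adds flanking bases of the CLEAR element. Both motifs read the same on either strand, and the longer contains the shorter. The core was present in 13 of the 35 members (37.1%), against 6.86% of 27025 genes with such a window, and it stood in 3 of 8 members that rose and in 10 of the 27 others. TCACGTGA was in 6 of the 35, of which 2 rose, against 0.907% of all genes. A match describes the letters of the window and shows no binding. The windows below are printed to show where the core lies, 5′ to 3′ on the gene's strand, with each CACGTG in capitals. They are those of 3 genes that rose and hold the core, Lamp1 (chr8:13158911-13159160, plus strand), Cln3 (chr7:126583237-126583486, minus strand) and Atp6v1a (chr16:44139260-44139509, minus strand), of 1 gene that rose without it, Atp6ap1 (chrX:74296847-74297096, plus strand), and of 2 genes that hold it and did not pass, Ctsd (chr7:142387828-142388077, minus strand) and Mcoln1 (chr8:3500269-3500518, plus strand). Lamp1 has 4 cores within the last 61 bases before its start. Cln3 has 2 before the start printed here and 0 before its other RefSeq start (chr7:126585818-126586067, minus strand), and a gene was counted as holding a motif where any of its windows did. Ctsd and Mcoln1 have 2 each and Atp6v1a has 1, at 131 bases before the start.
Lamp1: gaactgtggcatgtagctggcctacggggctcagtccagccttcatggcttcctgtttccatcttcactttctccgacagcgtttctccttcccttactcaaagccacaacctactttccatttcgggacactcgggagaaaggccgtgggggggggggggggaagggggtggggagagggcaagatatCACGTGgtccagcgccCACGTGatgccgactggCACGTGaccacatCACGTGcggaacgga
Cln3: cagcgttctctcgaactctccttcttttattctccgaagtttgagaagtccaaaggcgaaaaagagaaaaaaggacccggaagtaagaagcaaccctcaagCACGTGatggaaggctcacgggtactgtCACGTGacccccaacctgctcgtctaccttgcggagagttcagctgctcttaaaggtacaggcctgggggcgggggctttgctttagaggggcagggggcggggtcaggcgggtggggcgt
Atp6v1a: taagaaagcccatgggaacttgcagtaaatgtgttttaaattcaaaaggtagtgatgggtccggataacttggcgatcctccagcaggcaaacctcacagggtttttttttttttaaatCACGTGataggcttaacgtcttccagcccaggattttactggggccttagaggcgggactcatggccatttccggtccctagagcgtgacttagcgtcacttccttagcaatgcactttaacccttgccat
Atp6ap1: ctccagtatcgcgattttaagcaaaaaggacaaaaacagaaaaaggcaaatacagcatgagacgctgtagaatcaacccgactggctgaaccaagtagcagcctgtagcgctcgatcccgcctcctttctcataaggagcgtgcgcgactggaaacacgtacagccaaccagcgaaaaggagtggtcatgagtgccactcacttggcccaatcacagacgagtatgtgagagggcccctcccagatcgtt
Ctsd: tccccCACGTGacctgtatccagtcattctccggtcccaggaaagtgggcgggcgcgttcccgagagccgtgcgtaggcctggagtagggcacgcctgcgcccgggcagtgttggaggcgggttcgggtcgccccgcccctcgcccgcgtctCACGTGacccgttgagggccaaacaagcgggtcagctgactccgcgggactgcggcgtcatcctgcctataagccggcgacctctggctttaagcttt
Mcoln1: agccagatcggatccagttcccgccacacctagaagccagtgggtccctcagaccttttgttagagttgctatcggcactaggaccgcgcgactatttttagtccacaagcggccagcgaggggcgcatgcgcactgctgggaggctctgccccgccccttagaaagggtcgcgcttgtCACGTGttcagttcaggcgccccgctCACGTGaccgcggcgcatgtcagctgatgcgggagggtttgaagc

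Of the marker lists for glia, macrophages and vessels, none had a tested member that rose in R6/2. Of 15 tested microglia markers, 0 rose and 2 fell, and the 16 listed genes summed to 75.4 to 87.8 FPKM in R6/2 and 91.6 to 112 FPKM in control libraries, with C1qa listed at 0 in at least 1 library. None of 6 macrophage markers of the brain's borders reached a mean of 1 FPKM, and they summed to 0.831 to 1.76 FPKM in R6/2 and 1.96 to 4.67 FPKM in control libraries, with Lyve1, Ms4a7 and Pf4 each listed at 0 in at least 1 library. Of 12 astrocyte markers, 0 rose and 6 fell, with sums of 822 to 969 FPKM in R6/2 and 1182 to 1433 FPKM in control libraries. Of 12 oligodendrocyte markers, 0 rose and 9 fell, with sums of 768 to 1165 FPKM in R6/2 and 1624 to 1839 FPKM in control libraries. None of 5 tested oligodendrocyte precursor markers or of 9 tested endothelial and mural markers passed, and their sums were 18.3 to 27.7 FPKM in R6/2 and 30.1 to 39.6 FPKM in control libraries for precursors and 76.9 to 88.4 FPKM in R6/2 and 85.4 to 103 FPKM in control libraries for vessels. Among 10 markers of neurons in general, 1 rose and 4 fell, and their sums overlapped, at 2356 to 3774 FPKM in R6/2 and 3027 to 3448 FPKM in control libraries.

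**Figure D3:**
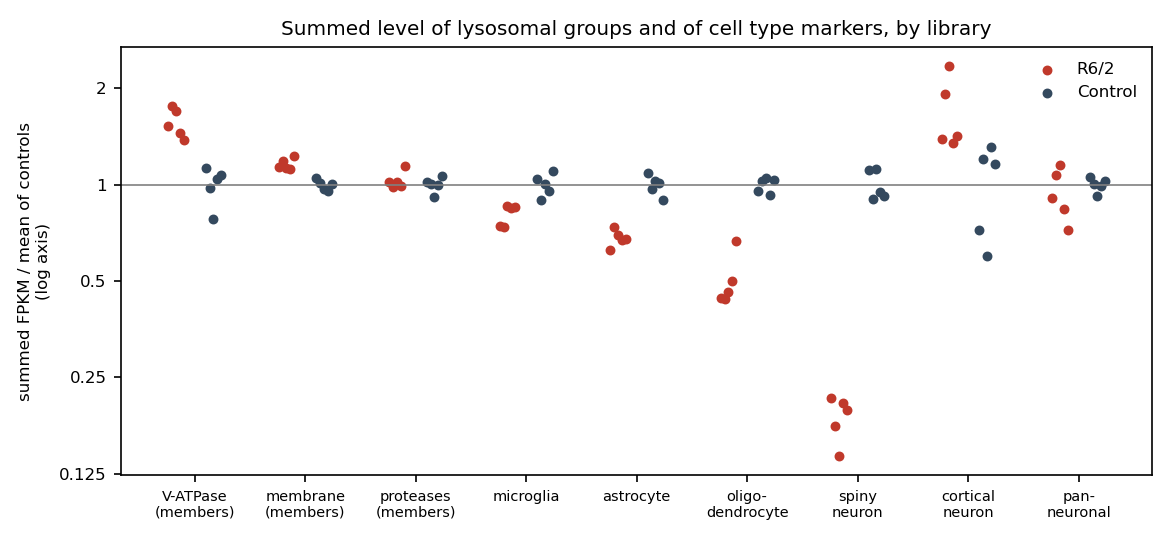
Summed FPKM of 3 groups of lysosomal genes and of 6 lists of cell type markers, divided by the mean of the controls, on a log axis, with 1 point per library and R6/2 left of control. The V-ATPase and membrane protein sums lie above all controls in R6/2, the protease sums overlap, the microglia, astrocyte, oligodendrocyte and spiny neuron sums lie below all controls, the cortical neuron sums lie above them, and the sums of general neuron markers overlap. Atp6v1a is the largest part of the V-ATPase sum.

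The cortical neuron markers were higher together with the lysosomal genes. They summed to 48.3 to 83.9 FPKM in R6/2 and 21.5 to 47.0 FPKM in control libraries, and none was at 0. With their mean level as a term in the model, 0 of the 38 members were called, and 112 of all genes tested were called higher, where 795 were without the term. All 5 R6/2 libraries had a higher marker level than all 5 controls, so this fit cannot tell the marker term and the group apart. Calls lost in it therefore do not show which of the 2 the changes follow. The part of the cortical signal in the lysosomal changes was not tested beyond these values. All 9 genes kept a positive change there, and the median of the members was 0.19. The log2 change was 0.48 (limma adjusted p = 0.377) for Atp6v1a, 0.44 (limma adjusted p = 0.0698) for Atp6ap1, 0.43 (limma adjusted p = 0.165) for Ids, 0.36 (limma adjusted p = 0.137) for Smpd1, 0.63 (limma adjusted p = 0.271) for Cln3 and 0.18 (limma adjusted p = 0.331) for Lamp1. Without R6/2 2 and 3 and Controls 1 and 3, which leaves 3 libraries against 3 with nearer cortical levels, 0 members and 87 of all genes were called higher. All 9 genes again kept a positive change, with 0.61 (limma adjusted p = 0.0567) for Atp6v1a, 0.49 (limma adjusted p = 0.0652) for Atp6ap1 and 0.46 (limma adjusted p = 0.166) for Ids. In those 6 libraries Atp6v1a was at 648, 624 and 557 FPKM in R6/2, against 364, 403 and 430.3 FPKM in controls, without overlap.

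**Figure D4:**
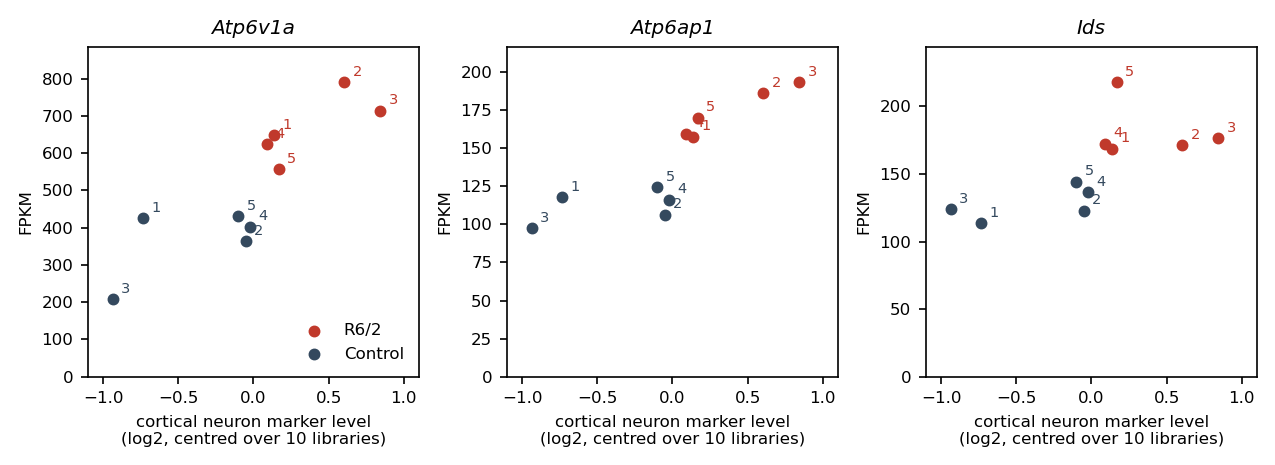
FPKM of Atp6v1a, Atp6ap1 and Ids against the mean log2 level of 4 cortical neuron markers, centred over the 10 libraries, with 1 numbered point per library. Control 3 has the lowest marker level, -0.94, and the lowest Atp6v1a and Atp6ap1. Control 1 has the next lowest level, -0.74, yet its Atp6v1a, 426 FPKM, and Atp6ap1, 118 FPKM, lie within the range of Controls 2, 4 and 5. Its Ids, 114 FPKM, is the lowest of the controls. R6/2 libraries 2 and 3 have the highest Atp6v1a and Atp6ap1, while Ids differs little between R6/2 libraries 1 to 4.

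Other genes of the lysosomal pathway were called at shares near those of all genes. Of 124 tested out of 135 listed, 8 rose and 10 fell (6.45% higher and 8.06% lower, against 5.00% and 9.11% of all genes), with a median log2 change of 0.0518. Among 33 genes for other hydrolases, related enzymes, activators and maturation factors, not all of them soluble or lysosomal, 2 rose and 1 fell. The carboxypeptidase gene Scpep1 rose with a log2 change of 0.76 (limma adjusted p = 0.00339) and the cholesterol-binding protein gene Npc2 fell with a log2 change of -0.39 (limma adjusted p = 0.0223). Among 26 other membrane protein genes, Ostm1, the partner of the lysosomal chloride transporter, rose with a log2 change of 0.47 (limma adjusted p = 0.0183), and 3 fell. Of these, the macrophage and microglia lysosomal glycoprotein gene Cd68 was at 4.77, 3.68, 3.20, 2.01 and 2.98 FPKM in R6/2 libraries 1 to 5, against 9.65, 7.41, 9.10, 5.99 and 11.4 FPKM in controls 1 to 5. The groups did not overlap (log2 change -1.17, SE 0.20, limma adjusted p = 0.00376). Lamp5, a relative of Lamp1 and Lamp2 expressed in subsets of neurons, was at 16.4 ± 4.21 FPKM in R6/2 and 32.3 ± 3.84 FPKM in control libraries (SD, n = 5 each, log2 change -0.97, limma adjusted p = 0.00599).

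Among 13 other V-ATPase subunit genes, the V1 F subunit gene Atp6v1f rose with a log2 change of 0.53 (limma adjusted p = 0.0345) and the V0 a2 subunit gene Atp6v0a2 fell, with a log2 change of -0.36 (limma adjusted p = 0.0405). The other 11 did not pass. Signs were mixed, with a positive change in 8 of the 13 and a median log2 change of 0.17. Of 18 genes of mannose 6-phosphate tagging and sorting to lysosomes, the tagging enzyme gene Gnptab rose with a log2 change of 0.48 (limma adjusted p = 0.0407) and 3 fell, among them the adaptor subunit genes Ap1s1 (log2 change -0.84, limma adjusted p = 0.0111) and Ap1s2 (log2 change -0.69, limma adjusted p = 0.00148). Of 18 genes that control lysosome biogenesis through TFEB and the kinase mTORC1, the folliculin gene Flcn (log2 change 0.56, limma adjusted p = 0.0396) and the Rag GTPase gene Rragb (log2 change 0.49, limma adjusted p = 0.0436) rose, and the Rag GTPase gene Rragd (log2 change -1.02, limma adjusted p = 0.00088) and the repressor gene Zkscan3 (log2 change -0.30, limma adjusted p = 0.0345) fell. Rragd was at 19.9, 21.4, 17.2, 17.1 and 18.0 FPKM in R6/2 libraries 1 to 5, against 49.2, 41.3, 42.8, 32.5 and 30.7 FPKM in controls 1 to 5, without overlap. Of 16 genes for tethering and fusion with lysosomes, Vps33b rose with a log2 change of 0.61 (limma adjusted p = 0.0366). The calls of Scpep1, Ostm1, Cd68, Lamp5, Ap1s1, Ap1s2 and Rragd held without each library in turn. Those of the other 8 named genes held in between 1 (Rragb) and 7 (Npc2) of the 10 settings that leave out a library, with adjusted p up to 0.0977.

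The number of members called depended on single libraries and on scaling. It was 4 without R6/2 2, 5 without R6/2 3, 4 without Control 3 and 6 to 8 without each other library, and 0 members were called lower in each of these settings. Atp6v1a, Atp6ap1, Ids and Smpd1 were called in all 10 of them. Nuclear protein-coding FPKM summed to 193203 to 202906 in R6/2 and 211209 to 219426 in control libraries. Rescaling these sums to 1 total moved the median log2 change of all genes from 0.00103 to 0.0930. The member median moved from 0.15 to 0.27. With rescaling, 1522 of all genes were called higher and 1136 lower (795 and 1449 as deposited), and 15 members were called higher and 0 lower.

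**Figure D5:**
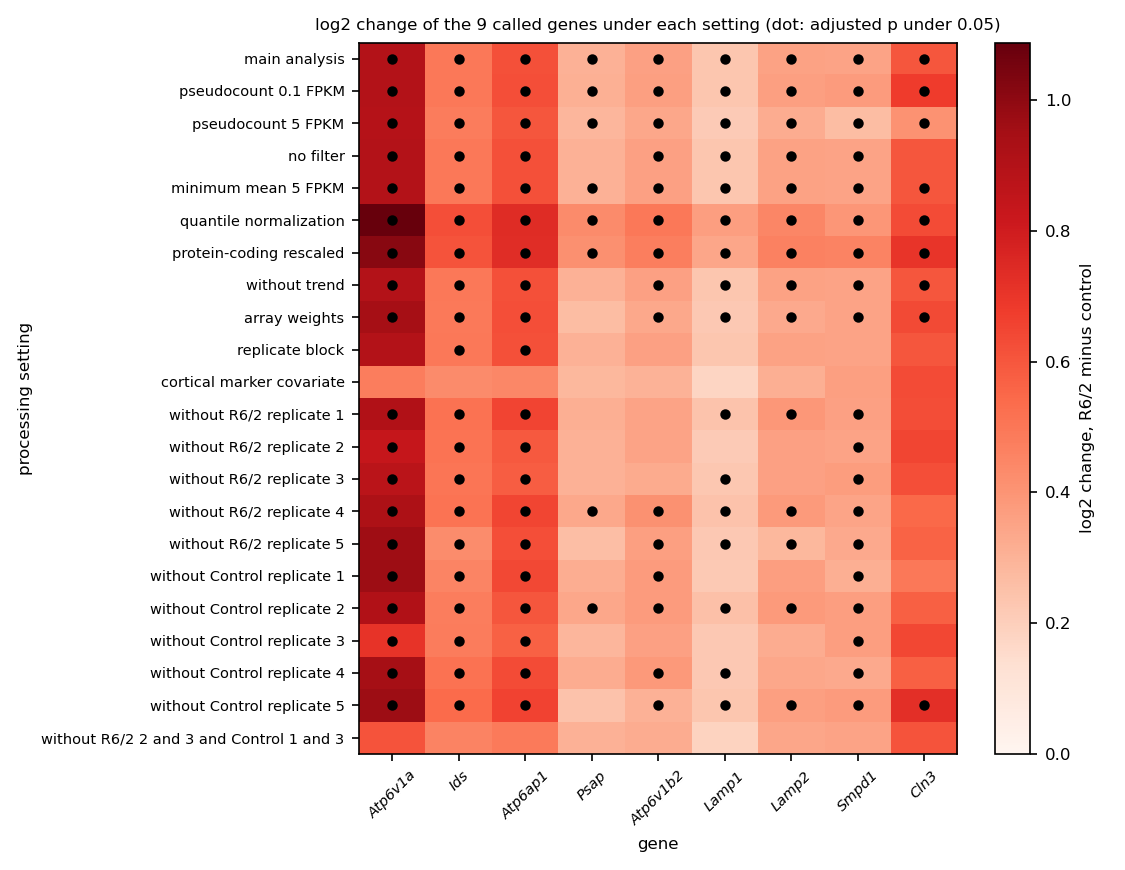
Log2 change, R6/2 minus control, of the 9 lysosomal genes called higher (columns) under the main analysis and each alternative (rows), as colour from 0 upwards, with a dot where the limma adjusted p is under 0.05. All 9 changes are positive in every row, and Atp6ap1, Ids, Smpd1 and Atp6v1a keep their dots without each single library, while no gene has a dot with the cortical marker term or in the 6 libraries that remain without R6/2 2 and 3 and Control 1 and 3.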

How the data were processed

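Striatal RNA in 5 R6/2 and 5 control libraries was sequenced on an Illumina instrument after NuGEN Ovation amplification and Nextera library preparation, per the labels' protocols. The deposited table holds FPKM per gene and library, made by the authors; STAR 2.4.0, Cufflinks, Cuffdiff and GRCm38 are named per the submitters' processing notes. No source used here says how strand and multiply mapped reads were treated. Depth is unknown, so no counting interval is given. An exact 0 can be a failed estimate. Versioned Ensembl IDs were matched to symbols with GENCODE vM21, which gave a symbol to 47220 of 47632 rows, and all 39 members were found. Every column of values belonged to a labelled sample.

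The 15905 genes averaging 1 FPKM or more entered limma 3.58.1 (R 4.3.3) as log2(FPKM + 1). Its two-sided moderated test used empirical Bayes with a trend of variance on mean, with Benjamini-Hochberg adjustment over all tested genes and a threshold of 0.05. Fold changes on this scale understate the change of low genes. Only the main limma model and the adjustment were tested on simulated log2 values, and the alternatives were not. The members and lists were chosen with earlier results of these data known, so no test of a list was made. Every member is named, with each library's values where it passed; of each pathway list the text names up to 2 called genes per direction by size of change, and some results are not reported here. Alternatives were the pseudocount, the filter, the scaling, the trend, array weights, a replicate block, a cortical marker term and leaving out each library.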

Additional observations from a re-analysis of the deposited data

Results flagged for a closer look

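In 7 of 78 sets of 5 libraries (39 genes in 2 groups), 1 library lay apart from the other 4 by more than Dixon's criterion of 0.71 of the whole range, which chance gives in about 1 set in 20. Ctsd was lowest in R6/2 3, at 65.6 FPKM, with the other R6/2 libraries at 78.9 to 82.0 FPKM. Ctsf was lowest in R6/2 2, at 3.95 FPKM, with the other R6/2 libraries at 5.52 to 5.89 FPKM. Tpp1 was highest in R6/2 5, at 30.0 FPKM, with the other R6/2 libraries at 19.9 to 21.9 FPKM. Neu1 was highest in Control 1, at 6.69 FPKM, with the other control libraries at 4.90 to 5.30 FPKM. Ids was highest in R6/2 5, at 218 FPKM, with the other R6/2 libraries at 169 to 176 FPKM. Lamp2 was highest in R6/2 5, at 50.6 FPKM, with the other R6/2 libraries at 37.3 to 40.8 FPKM. Tmem175 was lowest in Control 4, at 18.5 FPKM, with the other control libraries at 23.0 to 24.1 FPKM. R6/2 5 is the library that stood apart in Tpp1, Ids and Lamp2; the calls of Ids and Lamp2 held without it.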

How the results depend on the processing

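The 9 members called higher kept a positive change under all 21 alternatives, and no member was called lower under any of them. The number called higher, 9 in the main analysis, was 15 with protein-coding rescaling, 3 with a replicate block, 0 with the cortical marker term, 0 without R6/2 2 and 3 and Control 1 and 3 (chosen after seeing the data) and 4 to 8 without each library. Replicate numbers did not pair the samples (correlation of same-numbered deviations -0.0528 to 0.0495, best with its own number for 1 of 5 R6/2 libraries); the block called Atp6ap1, Grn and Ids, and 370 of all genes higher and 975 lower. Of other pathway genes, 8 were called higher in the main analysis, 3 with no filter, 17 with quantile normalization, 21 with rescaling, 3 with the block, 0 with the cortical term, 0 without the 4 libraries and 2 to 8 without each library; 10 were called lower, against 6 with rescaling, 5 with the block, 4 with the cortical term, 1 without the 4 libraries and 6 to 11 without each library. The member median, 0.15, was 0.12 with a pseudocount of 5, 0.11 with no filter, 0.21 with a minimum mean of 5 FPKM, 0.25 with quantile normalization, 0.27 with rescaling, 0.19 with the cortical term and 0.11 to 0.19 without each library. Quantile normalization called 1111 of all genes higher and 1277 lower. The cause of these shifts was not tested.

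Signs turned for 13 members that were not called. With quantile normalization the log2 change was 0.00227 for Ctsa, 0.00506 for Ctsb, 0.14 for Ctsd, 0.0209 for Tpp1, 0.0112 for Gla. With protein-coding rescaling the log2 change was 0.0494 for Ctsa, 0.0417 for Ctsb, 0.11 for Ctsd, 0.00132 for Ctsf, 0.0770 for Tpp1, 0.0446 for Gla, 0.0450 for Hexa, 0.0166 for Neu1. With array weights the log2 change was 0.0194 for Ctsd, 0.0320 for Gla. With the cortical marker term the log2 change was -0.0222 for Glb1, 0.14 for Hexa, 0.0158 for Neu1, 0.25 for Manba, 0.0675 for Mcoln1. Without the 4 libraries the log2 change was -0.00903 for Glb1, 0.0902 for Hexa, 0.0446 for Neu1, 0.0252 for Mcoln1. Without each library the ranges were -0.22 to 0.10 for Ctsa, -0.0439 to 0.0520 for Ctsd, -0.13 to 0.0391 for Tpp1, -0.12 to 0.0907 for Gla, -0.0303 to 0.0927 for Glb1, -0.15 to 0.0255 for Hexa, -0.15 to 0.0204 for Neu1, -0.0434 to 0.16 for Gaa, -9.46e-05 to 0.14 for Man2b1. Depth is unknown, so its limit on low genes such as Naglu could not be set.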
